A study of Mus musculus with 6 samples.

Results

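The 10 genes described here are a set of adipocyte and lipid handling genes, taken by name from the 24421 rows of a gene expression matrix of sorted aortic cells. They comprise the transcription factors *Pparg* and *Cebpa*, the fatty acid receptor *Cd36*, the lipase *Lpl*, the binding proteins *Fabp4* and *Fabp5*, the lipid droplet proteins *Plin1* and *Plin2*, and the secreted proteins *Adipoq* and *Cfd*. All 10 have a row of their own. Aortic roots and ascending aortas were dissected from 129S6/SvEv mice, 8 weeks old, carrying the conditional *CAG-Sun1/sfGFP* tracer with either a *Mef2c*SHF Cre allele, which traces the secondary heart field (SHF), or *Wnt1-Cre2*, which traces the cardiac neural crest (CNC). After digestion at 37°C, living GFP+ cells were sorted and their RNA was amplified by the SmartSeq2 protocol. There were 3 SHF and 3 CNC libraries, described by the authors as biological replicates, and the number of mice behind each is not given in the sources used here. Both groups carried the same tracer, the column names mark all 6 as WT (AHF_WT for SHF and CNC_WT for CNC), and no other allele or treatment is named. Each Cre marks a lineage and not a cell type, so a sorted library can hold every kind of cell that descends from it.

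White and brown fat cells store triglyceride in droplets and release it again as fatty acids. *Pparg* and *Cebpa* encode the nuclear receptor and the basic leucine zipper factor that together switch on the fat cell program, and most of the other genes in the set are among their targets in fat. Several are not limited to fat, however. Capillary endothelial cells use *Cd36* and *Fabp4* to pass fatty acids across the vessel wall, macrophages express *Cd36*, *Fabp4*, *Fabp5* and *Plin2*, and stromal cells and cardiomyocytes make *Lpl*. Outer layers of the aorta border on perivascular fat, whose progenitors lie in the adventitia.

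The values are transcripts per 1000000 (TPM), a level corrected for transcript length and expressed relative to the total of its library. TPM columns add up to 1000000 whatever the number of reads, so sequencing depth is unknown and neither a counting interval nor a detection limit could be given. From 9255 (SHF replicate 2) to 11858 (SHF replicate 1) genes were above 0 in a library. SHF replicate 2 was also the library least like each of the others, with Spearman correlations of 0.741 to 0.784. Values of 0 were common, also for enzymes of general metabolism, as with *Echs1*, a mitochondrial fatty acid oxidation enzyme listed at 0 in SHF replicate 2 and at 55.81 TPM or more in the other libraries. A gene at 0 is therefore given here as listed at 0. Where such a gene has a mean, its zeros are counted in it, and no mean ± SD is given. Fibroblast markers (10 genes, *Gsn* and *Dcn* the most abundant) summed to 14.58 to 51.26 times the level of 12 smooth muscle markers (*Myl9* and *Acta2* the most abundant), and their sum was higher in every CNC library (64254 to 69504 TPM) than in any SHF library (44390 to 62596 TPM). Of these genes, *Col1a1*, *Col1a2*, *Col3a1*, *Clec3b* and *Serpinf1* were higher in every CNC library. The others, *Gsn* and *Dcn* among them, overlapped between lineages. *Xist* was above 0 in SHF replicates 2 and 3 and in no other library, so that sex and lineage were partly confounded. In bulk samples, fewer cells of a type and less RNA per cell cannot be told apart.

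Of the 10 genes, 2 were above 0 in every library (*Lpl* and *Plin2*), 2 were listed at 0 in every library (*Adipoq* and *Cfd*), and 6 were above 0 in some. By mean TPM over the 6 libraries, with values of 0 included, the order was *Lpl* (146), *Plin2* (65.6), *Cd36* (35.4), *Fabp4* (35.3), *Fabp5* (15.4), *Pparg* (4.07), *Plin1* (4.06) and *Cebpa* (1.44). Neighbours in this order had overlapping ranges in every case. *Lpl* was above *Plin2* in 4 of 6 libraries, *Plin2* above *Cd36* in 5 of 6, and *Cd36* above *Fabp4* in only 1 of 6, its mean resting on SHF replicate 2. The members present throughout were thus those with the highest means. Among genes of 0.5 to 2 times the mean of a member, 2.2% at the level of *Lpl* and 12.6% at that of *Plin2* were listed at 0 in any library. At the level of *Pparg* and of *Plin1* this share was 80.1%. Being above 0 throughout was therefore common at a high mean and uncommon at a low one.

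**Figure D1:**
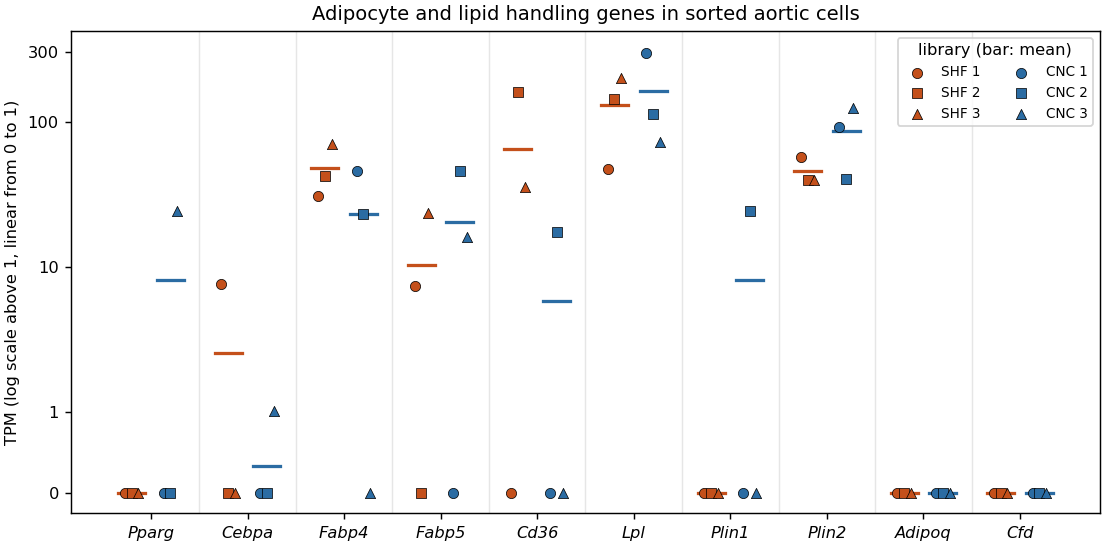
TPM of the 10 genes (y axis, logarithmic above 1 and linear from 0 to 1) in the 3 SHF libraries (orange) and the 3 CNC libraries (blue), with a bar at each lineage mean. *Lpl* and *Plin2* lie between 39.64 and 299.78 TPM in all 6 libraries, while *Adipoq* and *Cfd* lie at 0 in all 6 and *Pparg* and *Plin1* are above 0 in 1 library each.

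The question put to the lineages was whether SHF and CNC-traced cells differed in these transcripts. Differences on the log2(TPM + 1) scale, SHF minus CNC, were tested with limma across the 10185 genes that reached 1 TPM in 3 or more libraries, and p-values were adjusted over all of these by the Benjamini-Hochberg method. Of the 10 genes, 5 passed this filter, namely *Fabp4*, *Fabp5*, *Cd36*, *Lpl* and *Plin2*. *Pparg*, *Plin1* and *Cebpa* were above 0 but fell short of it, and *Adipoq* and *Cfd* had nothing to test. The number of the 5 with an adjusted p under 0.05 was 0, against 0 of 10185 genes (0%) in the whole fit. At an unadjusted p under 0.05 there were again 0 of the 5, against 274 genes higher in SHF (2.69%) and 323 higher in CNC (3.17%). The number of members was 1 when SHF replicate 1 was left out, against 778 of all 9217 genes tested in that fit. It was also 1 when CNC replicate 1 was left out, against 442 of all 9668 genes tested. Every SHF library was above every CNC library for 0 of the 5 genes, against 6.11% of all genes tested, and every CNC library above every SHF library for 0 of the 5, against 5.68%. For any 1 gene, the smallest p that exact two-sided permutation of 3 against 3 libraries allows is 0.1.

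*Lpl* encodes lipoprotein lipase, which is anchored at the vessel surface and frees fatty acids from circulating lipoproteins. The gene lies on chromosome 8 of GRCm38 from 68880491 to 68907448, on the plus strand. It measured 47.1, 144.39 and 199.99 TPM in SHF replicates 1, 2 and 3 and 299.78, 113.34 and 72.75 TPM in CNC replicates 1, 2 and 3. Both the highest and the second lowest value belonged to CNC libraries, and the lineages overlapped over most of their range. The mean was 130.5 ± 77.4 TPM (SD, n = 3) in SHF and 162 ± 121 TPM (SD, n = 3) in CNC, and the log2 fold change was -0.28 with a 95% confidence interval from -1.69 to 1.13 (limma adjusted p = 0.953). The exact two-sided permutation p was 0.8 (n = 3 per lineage). Over the 14 alternative settings the log2 fold change of *Lpl* ran from -0.73 to 0.33, and it turned positive when either SHF replicate 1 (0.33) or CNC replicate 1 (0.29) was left out.

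*Plin2* encodes perilipin 2, the droplet coat protein that most cell types make once they hold lipid. It lies on chromosome 4 from 86648386 to 86670060, on the minus strand. Its level was 56.92, 39.64 and 39.85 TPM in SHF replicates 1, 2 and 3 and 91.73, 40.6 and 124.86 TPM in CNC replicates 1, 2 and 3. CNC replicates 1 and 3 were above the SHF libraries and CNC replicate 2 lay among them. The mean was 45.5 ± 9.92 TPM (SD, n = 3) in SHF and 85.7 ± 42.4 TPM (SD, n = 3) in CNC. The log2 fold change of -0.78 had a 95% confidence interval from -2.05 to 0.49 (limma adjusted p = 0.888), and the exact two-sided permutation p was 0.2 (n = 3 per lineage). *Plin2* stayed lower in SHF under all 14 alternatives, from -1.24 to -0.44 on the log2 scale, and passed the threshold in none. It was also the steadiest of the 5 tested genes, as 21.9% of all genes tested had a residual SD smaller than its own. An annotated pseudogene, *Gm12551*, matched its transcript at 96.14% identity over 259 of 1888 bases and has no row in the matrix, so reads from the pair could have been pooled.

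Its paralog *Plin1*, on chromosome 7 from 79720218 to 79732903 on the minus strand, encodes the perilipin of white and brown fat cells that controls access of lipases to the droplet. It was at 24.36 TPM in CNC replicate 2 and listed at 0 in SHF replicates 1, 2 and 3 and in CNC replicates 1 and 3. Within a library, the log2 ratio of *Plin2* to *Plin1*, with 1 added to each, was 5.86, 5.34 and 5.35 in the SHF libraries and 6.54, 0.71 and 6.98 in the CNC libraries. *Plin2* thus exceeded *Plin1* in 6 of 6 libraries, by the least in CNC replicate 2. The ratios of the 2 lineages differed by 0.78, with an exact two-sided permutation p of 1 (n = 3 per lineage), and by -1.24 without CNC replicate 2.

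The stretches before the transcription starts of the perilipin pair and of *Cd36* are shown because these 3 genes carry the contrast between a steady and a sporadic member. They are 250 bases long, taken from RefSeq on GRCm38.p6 and written 5′ to 3′ on the strand of the gene. Capitals mark matches on either strand to the nuclear receptor half-site AGGTCA, which receptors such as that encoded by *Pparg* bind in pairs, and to TTGCNNAA, a C/EBP motif. The windows are chr4:86670060-86670309 for *Plin2*, chr7:79732777-79733026 for *Plin1* and chr5:17835897-17836146 for *Cd36*, all on the minus strand. The *Cd36* and *Plin1* starts in RefSeq lie within the spans that GENCODE gives these genes, and that of *Plin2* lies at the edge of its span.
Plin2: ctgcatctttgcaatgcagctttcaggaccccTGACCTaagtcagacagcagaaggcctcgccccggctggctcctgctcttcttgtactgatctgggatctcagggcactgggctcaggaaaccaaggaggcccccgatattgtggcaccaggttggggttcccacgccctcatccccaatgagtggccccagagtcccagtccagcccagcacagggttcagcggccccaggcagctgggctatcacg
Plin1: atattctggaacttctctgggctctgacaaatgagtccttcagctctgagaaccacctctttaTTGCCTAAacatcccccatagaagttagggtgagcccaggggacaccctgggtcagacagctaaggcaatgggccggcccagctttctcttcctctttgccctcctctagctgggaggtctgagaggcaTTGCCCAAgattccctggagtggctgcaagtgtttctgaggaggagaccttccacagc
Cd36: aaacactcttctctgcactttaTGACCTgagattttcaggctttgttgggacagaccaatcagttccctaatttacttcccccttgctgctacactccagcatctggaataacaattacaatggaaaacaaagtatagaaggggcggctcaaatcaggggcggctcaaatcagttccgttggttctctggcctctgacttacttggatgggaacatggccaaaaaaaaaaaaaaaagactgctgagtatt

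The *Plin2* window held the half-site once, as TGACCT from 218 to 213 bases before the start, and the *Cd36* window once, from 228 to 223 bases before it. The *Plin1* window held no half-site and 2 matches to the C/EBP motif, TTGCCTAA from 187 to 180 bases and TTGCCCAA from 58 to 51 bases before the start. Of 32851 windows of this length over all genes in the table, 14% held the half-site, 9.6% the C/EBP motif and 12.4% TATAAA, the TATA box, so that such a match is common. Windows were found for 7 of the 10 genes, 9 windows in all, and not for *Fabp4*, *Fabp5* and *Lpl*. *Pparg* has 3 windows, with the half-site in the 2 upstream ones and 2 C/EBP matches in the downstream one. The second *Pparg* window also matched TATAAA on the opposite strand, from 29 to 24 bases before the start. *Cebpa* had TATAAA from 30 to 25 bases before the start, and *Adipoq* and *Cfd* had none of the 3 motifs. No search was made beyond these windows.

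*Cd36* encodes a scavenger receptor that takes up long-chain fatty acids and oxidised lipoproteins. It lies on chromosome 5 from 17781690 to 17888801, on the minus strand. Its level was 159.58 TPM in SHF replicate 2, 35.77 TPM in SHF replicate 3 and 17.34 TPM in CNC replicate 2, and it was listed at 0 in SHF replicate 1 and CNC replicates 1 and 3. The 2 highest values were thus both in SHF libraries, but each lineage had libraries at 0. Among the 3621 genes whose mean lay between 0.5 and 2 times that of *Cd36*, 1.63% were listed at 0 in at least 3 libraries. The mean of *Cd36* rests on SHF replicate 2 and lies above most of its own values, so this share does not show how common zeros are at its usual level. The log2 fold change of 2.78 had a 95% confidence interval from -1.50 to 7.06 (limma adjusted p = 0.884, exact two-sided permutation p = 0.4, n = 3 per lineage). Of all genes tested, 99.4% had a smaller residual SD than *Cd36*. Without SHF replicate 1 the log2 fold change was 4.86, and when any of the 3 libraries above 0 was left out the gene no longer passed the filter.

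Summed markers of other cell types also varied between libraries, in those with *Cd36* above 0 and in those with it at 0. Smooth muscle markers, for instance, were highest in SHF replicate 1 (3248 TPM), where *Cd36* was listed at 0. The summed level of 12 endothelial markers was 318, 899 and 656 TPM in SHF replicates 1, 2 and 3 and 249.47 to 335.96 TPM in the CNC libraries. The library highest in *Cd36*, SHF replicate 2, was thus also the highest in endothelial markers, with *Pecam1*, an endothelial adhesion molecule, at 147.51 TPM there and 141.59 TPM in SHF replicate 3 against 9.72 to 37.86 TPM in the other 4. *Emcn*, *Cldn5*, *Egfl7*, *Tie1*, *Cdh5* and *Vwf* were likewise higher in SHF replicates 2 and 3 than in the other libraries, as with *Emcn* at 219.61 and 47.57 TPM there. The list did not move as a whole, since *Kdr*, *Tek* and *Robo4* were listed at 0 in SHF replicate 2 and *Esam* in SHF replicate 3. *Eng*, the most abundant of it, was at 218.98, 276.9 and 112.89 TPM in SHF and 275.15, 180.5 and 225.16 TPM in CNC. All 12 endothelial markers were above 0 in some library, and *Eng* and *Pecam1* were in every library. A list of 8 capillary endothelial markers summed to 144 to 236 TPM in SHF and 251 to 338 TPM in CNC. Most of this was *Aqp1* (80.99 to 145.98 TPM in SHF and 150.59 to 204.02 TPM in CNC) and *Meox2* (39.52 to 43.19 TPM and 31.45 to 137.54 TPM), while *Timp4* was above 0 in SHF replicates 2 and 3 alone (23.9 and 48.5 TPM). Of that list *Gpihbp1*, *Car4* and *Tcf15* were listed at 0 in all 6 libraries, *Gpihbp1* being the protein that holds lipoprotein lipase on capillaries. CNC replicate 2 had by far the most of the macrophage list, with a sum of 379 TPM over 12 genes against 7.96 and 15.6 TPM in the other CNC libraries and 8.56 to 42.4 TPM in SHF, mainly through *C1qb* at 141.06 TPM and *Lyz2* at 58.85 TPM. Of that list, *Adgre1*, *Fcer1g* and *Ptprc* were listed at 0 in all 6 libraries. Macrophages mostly descend from blood-forming cells outside both traced lineages. Cells were sorted as GFP+, and no purity of the sort is given in the sources used here. SHF replicates 2 and 3 were also the libraries with *Xist*. The part of these cell types, or of sex, in the *Cd36* values was not tested.

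**Figure D2:**
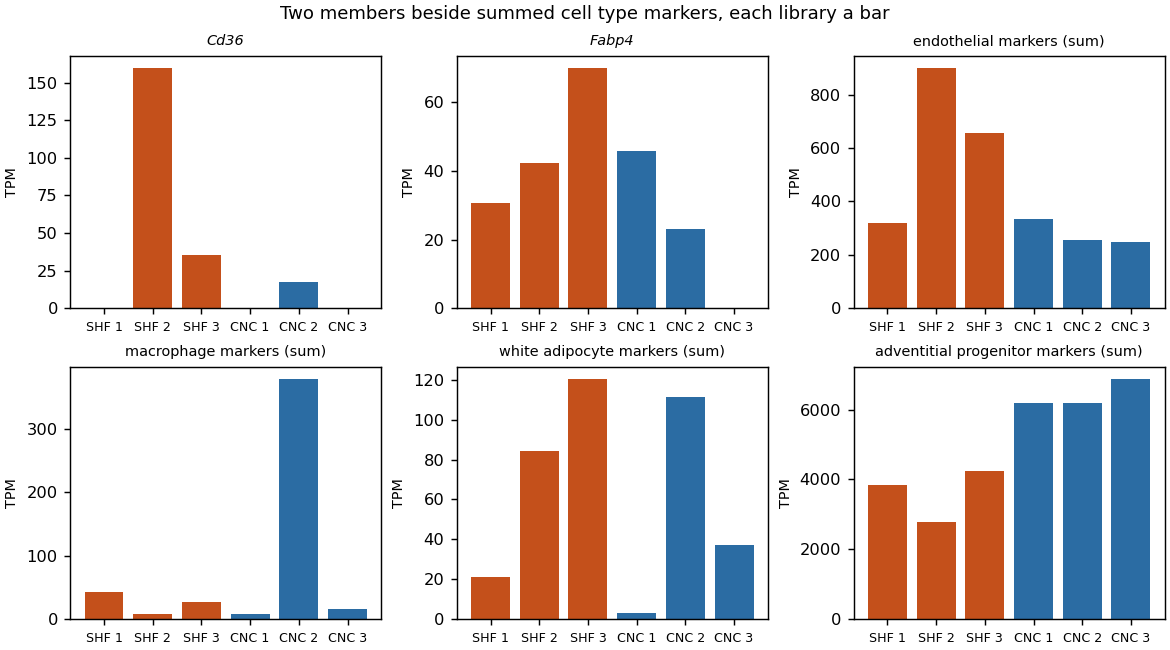
TPM of *Cd36* and *Fabp4* and the summed TPM of 4 marker lists (y axes, from 0), with a bar for each of the 3 SHF (orange) and 3 CNC (blue) libraries. *Cd36* is highest in SHF replicate 2, which also has the highest endothelial sum (899 TPM), and CNC replicate 2 has the highest macrophage sum (379 TPM).

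*Fabp4* and *Fabp5* encode small cytoplasmic proteins that carry fatty acids, the first typical of fat cells, capillary endothelium and macrophages and the second of epidermis, endothelium and macrophages. Both lie on chromosome 3, *Fabp4* from 10204088 to 10208576 on the minus strand and *Fabp5* from 10012548 to 10016607 on the plus strand. *Fabp4* measured 30.75, 42.32 and 69.86 TPM in SHF replicates 1, 2 and 3 and 45.81, 23.16 and 0 TPM in CNC replicates 1, 2 and 3. Apart from CNC replicate 3, where it was listed at 0, its values differed by at most 3.02 times, and CNC replicate 1 lay within the SHF range. Its log2 fold change was 2.14, with a 95% confidence interval from -0.76 to 5.05 (limma adjusted p = 0.874, exact two-sided permutation p = 0.3, n = 3 per lineage). The estimate rested on the 0, since without CNC replicate 3 it was 0.45. Among 3627 genes of 0.5 to 2 times its mean level, 27.9% were listed at 0 in at least 1 library, so a single 0 was common at this level. The part of endothelial or other cells in the *Fabp4* values was not tested.

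*Fabp5* measured 7.41, 0 and 23.35 TPM in SHF replicates 1, 2 and 3, against 0, 45.43 and 15.97 TPM in CNC replicates 1, 2 and 3. Each lineage had a library at 0, and the highest value was in CNC replicate 2, the library with the highest macrophage sum. The part of such cells in this value was not tested. The log2 fold change was -0.65, with a 95% confidence interval from -4.47 to 3.17 (limma adjusted p = 0.962, exact two-sided permutation p = 0.8, n = 3 per lineage), and it was positive without SHF replicate 2 (0.63) or CNC replicate 2 (0.52). The *Fabp5* transcript is matched by 5 annotated processed pseudogenes, at 93.63% to 98.29% identity over 336 to 409 of its 987 bases, none of which has a row in the matrix, so its values are uncertain to that extent. The log2 ratio of *Fabp4* to *Fabp5* within a library was 1.92, 5.44 and 1.54 in SHF and 5.55, -0.94 and -4.08 in CNC. *Fabp4* exceeded *Fabp5* in all 3 SHF libraries and in CNC replicate 1, and *Fabp5* exceeded *Fabp4* in CNC replicates 2 and 3. The difference of 2.79 between lineages had an exact two-sided permutation p of 0.5 (n = 3 per lineage). It was 0.66 without CNC replicate 3 and 5.48 without CNC replicate 1.

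**Figure D3:**
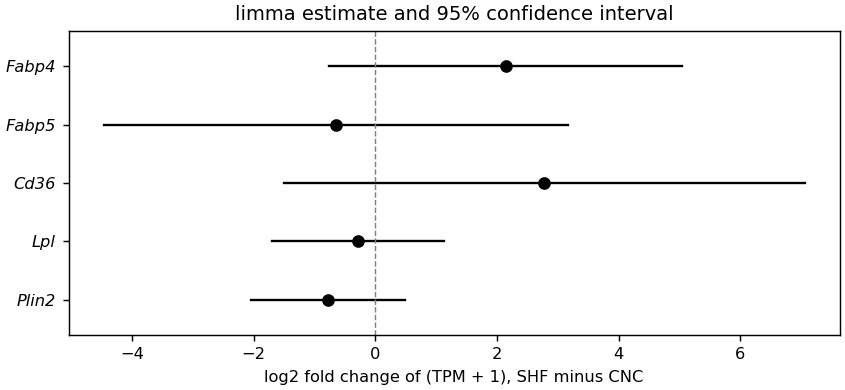
Log2 fold change of (TPM + 1), SHF minus CNC (x axis), for the 5 genes that passed the filter (y axis), with points for the limma estimate and lines for the 95% confidence interval. All 5 intervals include 0, and those of *Cd36*, *Fabp5* and *Fabp4* are the widest.

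The wider families of droplet coat and binding proteins were as uneven. *Plin3*, a perilipin found in the cytoplasm of most cells, was above 0 in every library, at 48.66, 86.44 and 135.28 TPM in SHF replicates 1, 2 and 3 and 101.7, 101.64 and 36.25 TPM in CNC replicates 1, 2 and 3. *Plin4*, of white fat and muscle, was at 7.98, 0 and 33.38 TPM in SHF and 0, 43.15 and 16.86 TPM in CNC, and *Plin5*, of oxidative tissues, was listed at 0 throughout. *Plin2* and *Plin3*, the perilipins with the highest means, were therefore the ones present in all 6 libraries. *Fabp3*, the binding protein of heart and skeletal muscle, measured 17.34, 84.86 and 70.78 TPM in SHF replicates 1, 2 and 3 and 0, 0.48 and 0 TPM in CNC replicates 1, 2 and 3, so that the lineages did not overlap. It passed the filter through its SHF values alone, did not pass the threshold (limma adjusted p = 0.475) and was chosen after its values were seen. A list of 10 cardiomyocyte markers summed to 124 to 144 TPM in SHF and to 0.73 to 92.1 TPM in CNC. *Tnnt2* and *Pln* were the most abundant by mean, and *Myl2* and *Myl7* were listed at 0 in all 6 libraries. The list did not move as a whole. In SHF replicate 2, the library highest in *Fabp3*, *Tnnt2* was at 87.44 TPM and *Pln* was listed at 0, and *Pln* was highest in CNC replicate 1 (54.2 TPM). The part of such cells in the *Fabp3* values was not tested. *Fabp7*, a glial and neural crest binding protein, was at 13.24 TPM in CNC replicate 3 alone. *Fabp1*, *Fabp2* and *Fabp6*, of liver and gut, were listed at 0 throughout.

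**Figure D4:**
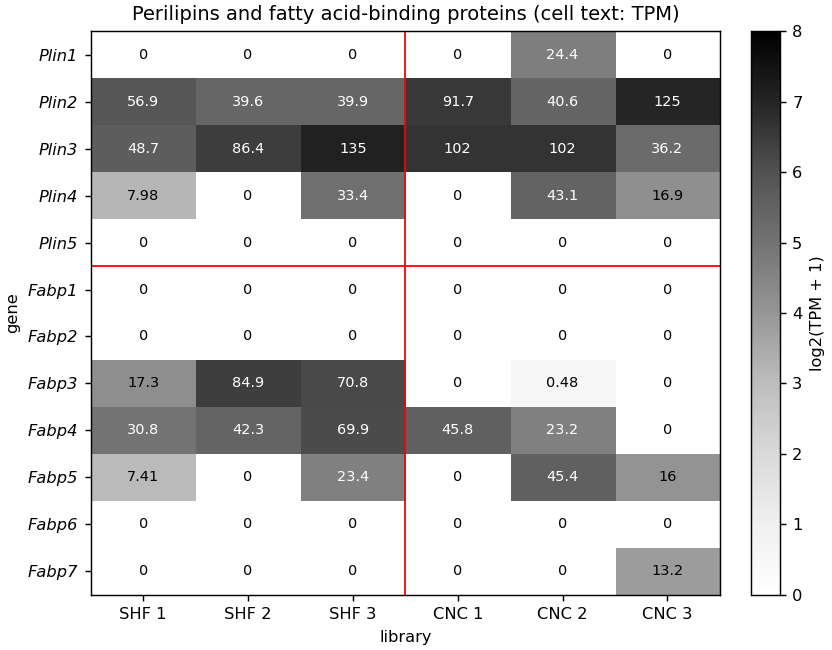
Heat map of log2(TPM + 1), from white at 0 to black at 8, for 5 perilipins and 7 fatty acid-binding proteins (rows) in the 3 SHF and 3 CNC libraries (columns), with the TPM value in each cell. *Plin2* and *Plin3* are filled in all 6 columns, and *Fabp3* is filled in the 3 SHF columns and at most 0.48 TPM in the CNC columns.

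The transcription factors of the set were at or near 0 in most libraries. *Pparg*, on chromosome 6 from 115360951 to 115490399 on the plus strand, was at 24.42 TPM in CNC replicate 3 and listed at 0 in the 3 SHF libraries and in CNC replicates 1 and 2. *Cebpa*, on chromosome 7 from 35119293 to 35121928 on the plus strand, was at 7.62 TPM in SHF replicate 1, at 1.01 TPM in CNC replicate 3 and listed at 0 in the other 4. CNC replicate 3 was thus the library with both factors. In it *Plin2* was at its highest (124.86 TPM), *Lpl* was at 72.75 TPM and *Fabp5* at 15.97 TPM, while *Fabp4*, *Cd36* and *Plin1* were listed at 0. Genes of the level of *Pparg* (3170 between 0.5 and 2 times its mean) were listed at 0 in at least 5 libraries in 8.61% of cases. An antisense gene, *Gm45091*, overlaps 51 exonic bases of *Cebpa*, and without strand reads there could belong to either.

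Of the secreted proteins, *Adipoq*, which encodes the fat cell hormone adiponectin, lies on chromosome 16 from 23146536 to 23158028 on the plus strand, and *Cfd*, which encodes the serine protease adipsin of the alternative complement pathway, lies on chromosome 10 from 79890853 to 79892655 on the plus strand. Each was listed at 0 in SHF replicates 1, 2 and 3 and in CNC replicates 1, 2 and 3. Of all 24421 rows, 41.9% were at 0 in every library. Of 13 white adipocyte markers, *Lep*, *Cidec*, *Retn*, *Trarg1*, *Acvr1c* and *Adrb3* were listed at 0 in all 6 libraries, which is 6 of the 13, and the list summed to 21.1 to 121 TPM in SHF and 3.10 to 111 TPM in CNC. Its most abundant genes were *Thrsp*, at 11.78, 55.08 and 31.66 TPM in SHF and 0, 63.52 and 0 TPM in CNC, and *Plin4*, given above. The sum was highest in SHF replicate 3 (121 TPM), where *Plin1* was listed at 0, and next in CNC replicate 2 (111 TPM), the library with *Plin1*. Of 8 brown adipocyte markers, 5 were at 0 in all 6 libraries, *Ucp1*, *Cidea*, *Elovl3*, *Cox7a1* and *Otop1*. The sum of this list, 46.7 to 93.9 TPM in SHF and 45.0 to 220 TPM in CNC, was mainly *Dio2*, a thyroid hormone deiodinase, at 17 to 53.41 TPM in SHF and 44.99 to 220.11 TPM in CNC, except in SHF replicate 3, where *Cox8b*, a respiratory chain subunit, made up 76.94 TPM of it. Markers of adventitial progenitors, by contrast, were plentiful. The 10 genes of that list summed to 2784 to 4235 TPM in SHF and 6177 to 6888 TPM in CNC. *Ly6a* ran from 688 to 1059 TPM in SHF and 1742 to 2443 TPM in CNC, and *Cd34* from 949 to 1232 TPM and 1184 to 1294 TPM. The sums of the list did not overlap between lineages. Gene by gene, *Ly6a* and *Pi16* were higher in every CNC library and *Icam1* in every SHF library, and the rest of the list overlapped.

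The other genes of lipid metabolism were taken from 8 lists with 147 entries, of which 109 passed the filter. None had an adjusted p under 0.05 by limma, 5 were higher in SHF (4.59%, against 2.69% of all genes tested) and 3 higher in CNC (2.75%, against 3.17%) at an unadjusted p under 0.05, and the smallest adjusted p was 0.475. Every SHF library was above every CNC library for 7 genes (6.42%, against 6.11% of all genes tested), and the reverse held for 6 (5.50%, against 5.68%). The share of genes without overlap was therefore close to that of all genes tested. The median log2 fold change was 0.02 over the 109 and 0.02 over all genes tested. Of the 8 list medians, 6 changed sign under some alternative setting.

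Of the 23 adipogenic regulators that act upstream of or beside *Pparg* and *Cebpa*, 7 were above 0 in every library and 1 in none. *Cebpd*, an early factor of fat cell differentiation, measured 308.28, 148.41 and 294.86 TPM in SHF replicates 1, 2 and 3 and 298.42, 101.11 and 284.21 TPM in CNC replicates 1, 2 and 3. *Ebf1* ran from 88.2 to 106.98 TPM in SHF and 96.67 to 220.01 TPM in CNC, and *Ebf2*, a marker of fat progenitors, from 37.21 to 107.93 TPM and 36.02 to 72.21 TPM. All 3 overlapped between lineages. Of the list 14 genes were tested, with 0 past the threshold in either direction and a median log2 fold change of 0.29. *Ppara* was listed at 0 in all 6 libraries.

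Of the droplet and lipolysis genes, 10 of 15 were tested, with 0 past the threshold and a median of -0.26. *Bscl2*, which encodes the droplet assembly protein seipin, was at 134.4, 321.93 and 29.3 TPM in SHF and 261.53, 150.86 and 155.89 TPM in CNC. *G0s2*, an inhibitor of adipose triglyceride lipase, ran from 22.03 to 121.41 TPM in SHF and from 64.43 to 165.68 TPM in CNC. *Cidea*, *Cideb*, *Cidec* and *Plin5* were listed at 0 throughout. Of the triglyceride synthesis genes, 9 of 14 were tested, with 0 past the threshold and a median of 0.64. *Gpat4*, found under the older symbol *Agpat6*, was at 2.58 to 63.85 TPM in SHF and 24.14 to 70.5 TPM in CNC. *Agpat2*, an acyltransferase needed for fat storage, was at 29.54, 37.83 and 46.54 TPM in SHF and 27.3, 22.84 and 9.32 TPM in CNC, without overlap (limma adjusted p = 0.889). *Agpat3*, a related acyltransferase, ran from 3.66 to 20.31 TPM in SHF and from 18.48 to 35.7 TPM in CNC.

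In the fatty acid synthesis list 14 of 15 genes were tested, with 0 past the threshold and a median of -0.17. *Fads1*, the delta-5 desaturase, was at 83.48, 70 and 62.44 TPM in SHF and 218.32, 142.62 and 110.08 TPM in CNC, so that all CNC libraries were above all SHF libraries. The mean was 72 ± 10.7 TPM (SD, n = 3) in SHF and 157 ± 55.5 TPM (SD, n = 3) in CNC, and its log2 fold change of -1.07 (95% confidence interval -2.03 to -0.11) had an adjusted p of 0.812 by limma. *Elovl1* and *Elovl5*, elongases, ran from 38.88 to 166.69 TPM and 99.74 to 109.56 TPM in SHF and from 100.29 to 201.48 TPM and 40.06 to 121.2 TPM in CNC.

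For uptake, binding and activation 13 of 22 genes were tested, with 0 past the threshold and a median of 0.14. *Dbi*, the acyl-CoA-binding protein, was at 1138.75, 1810.14 and 809.45 TPM in SHF and 770.11, 550.24 and 551.5 TPM in CNC, without overlap. The mean was 1253 ± 510 TPM (SD, n = 3) in SHF and 624 ± 127 TPM (SD, n = 3) in CNC, with a log2 fold change of 0.94 and an adjusted p of 0.688 by limma. *Acsl1*, which activates long-chain fatty acids in fat and heart and was chosen after its values were seen, was at 16.39, 97.44 and 24.36 TPM in SHF and 0, 9.4 and 3.19 TPM in CNC (limma adjusted p = 0.796). *Cav1*, the caveolae protein, ran from 145.38 to 272.37 TPM in SHF and 210.03 to 288.02 TPM in CNC, and *Angptl4*, a secreted inhibitor of lipoprotein lipase, from 98.8 to 127.13 TPM and 68.5 to 156.43 TPM. The inhibitor was thus present in every library with *Lpl*, while its capillary anchor *Gpihbp1* was listed at 0.

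Genes of beta-oxidation were the most evenly detected of the 8 lists, with 22 of 23 tested, 18 above 0 in every library, 0 past the threshold and a median of 0.02. *Acaa2*, *Etfa* and *Etfb*, of the mitochondrial pathway, were at 172.04 to 309.32, 157.12 to 277.71 and 127.92 to 240.96 TPM over the 6 libraries. The sum of the list ran from 1787 to 2174 TPM in SHF and from 1894 to 2124 TPM in CNC. Sterol genes had 20 of 23 tested, 0 past the threshold and a median of -0.20. Within this list *Apoe*, the apolipoprotein that carries cholesterol out of cells, measured 7251, 9222 and 6780 TPM in SHF replicates 1, 2 and 3 and 2370, 4784 and 1873 TPM in CNC replicates 1, 2 and 3. The mean was 7751 ± 1296 TPM (SD, n = 3) in SHF and 3009 ± 1557 TPM (SD, n = 3) in CNC, and the log2 fold change of 1.47 (95% confidence interval 0.77 to 2.17) did not pass the adjustment (limma adjusted p = 0.475). *Lrp1*, its receptor, ran from 201.02 to 255.58 TPM in SHF and 186.59 to 201.21 TPM in CNC, and *Npc2*, a lysosomal cholesterol carrier, from 127.93 to 145.04 TPM and 187.62 to 251.04 TPM (limma adjusted p = 0.874).

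Of 12 adipokines 7 were tested, with 0 past the threshold and a median of -0.55. *Rbp4*, the retinol carrier, ran from 447.31 to 979.08 TPM in SHF and 677.08 to 1246.99 TPM in CNC, and *Rarres2*, which encodes chemerin, from 579.77 to 820.62 TPM and 337.64 to 854.62 TPM. Both are made by fibroblasts as well as by fat cells. *Lcn2*, an iron-siderophore carrier also made by epithelium and neutrophils, was at 31.87, 77.26 and 28.3 TPM in SHF and listed at 0 in all CNC libraries (limma adjusted p = 0.475), and it passed the filter through its SHF values alone. *Lep*, *Retn*, *Agt*, *Apln* and *Sfrp5* were listed at 0 in all 6 libraries.

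**Figure D5:**
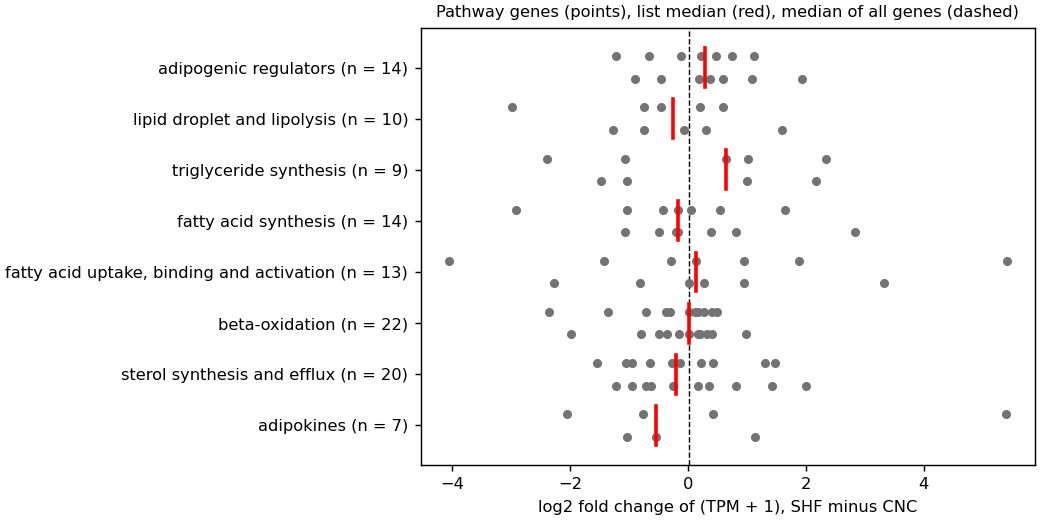
Log2 fold change of (TPM + 1), SHF minus CNC (x axis), of each tested gene (grey points) in 8 lipid pathway lists (y axis), with the list median in red and the median of all genes tested as a dashed line at 0.02. The list medians run from -0.55 for adipokines to 0.64 for triglyceride synthesis, and no gene passed the threshold.

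Genes with the pattern most like that of a member over the 6 libraries were found for the 4 tested members whose log2(TPM + 1) spanned at least 2, by the smallest root mean square difference after each gene was centred on its own mean. For *Fabp5* the nearest of the 10185 genes was *Plin4* (0.19 on the log2 scale), followed by *Tmub1* (0.24). For *Fabp4* they were *Ten1* (0.43) and *Mif4gd* (0.44), which shared the 0 in CNC replicate 3. For *Cd36* they were *Timm10* (0.59), at 0, 121.97 and 68.24 TPM in SHF and 0, 44.17 and 0 TPM in CNC, and *Ugcg* (0.73), which encodes the glucosylceramide synthase. For *Lpl* they were *Myl4* (0.14) and *Hic1* (0.27). These are descriptions of 6 libraries, and a shared 0 weighs heavily in this measure.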

How the data were processed

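RNA of sorted SHF and CNC-traced aortic cells was measured in 6 libraries, 3 per lineage. The authors ran RSEM 1.2.25 with bowtie2 on mm10 and deposited TPM, rounded to 2 decimals, in 1 matrix with a column per library. The gene annotation and strand setting are not given in the sources used here, and SmartSeq2 with Nextera XT does not mark strand. Columns were matched to libraries by library code, and 0 columns were left over.

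Lineages were compared by limma 3.58.1 (R 4.3.3), using lmFit and eBayes with its trend option, on log2(TPM + 1) of the 10185 genes that reached 1 TPM in 3 or more libraries. Benjamini-Hochberg adjustment covered all of these, at 0.05. On this scale the change of a low gene is understated. Single values had exact two-sided permutation tests. The fit was tested on simulated data. The methods of the study state a filter on TPM but no test of level.

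The members and lists were chosen with earlier results of these data known. The text names the 10 members, the 3 most abundant genes of each pathway list, the 2 most abundant of each marker list described, its markers at 0 throughout, and the 2 genes nearest in pattern to a member. Genes named beyond this rule for their values were *Echs1*, *Plin4*, *Plin5*, *Fabp1*, *Fabp2*, *Fabp3*, *Fabp6*, *Fabp7*, *Acsl1*, *Timp4*, *Kdr*, *Tek*, *Robo4*, *Xist*, *Gm13305* and the pathway genes given as 0 throughout. *Cdh5*, *Cldn5*, *Egfl7*, *Emcn*, *Esam*, *Tie1*, *Vwf*, *Pi16*, *Icam1*, *Clec3b*, *Serpinf1*, *Col1a1*, *Col1a2* and *Col3a1* were named for the same reason. Of 250 list entries, 3 were found by an older symbol. Positions and exon overlaps come from GENCODE M21, whose GRCm38 build is also named mm10, and transcript copies were sought with blastn 2.17.0 at 90% identity over at least 200 bases. Promoter sequences are from RefSeq on GRCm38.p6. p-values measure the spread between these libraries, which may be in part technical. Python 3.11.15 with pandas 2.3.3 and matplotlib 3.10.9 drew the plots.

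The alternatives were pseudocounts of 0.1 and 5, no filter, a filter of 5 TPM, quantile normalization, rescaling by median-of-ratios factors, no trend in eBayes, a replicate block, and each library left out in turn. No group had the 4 libraries needed to look for outlying ones.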

Additional observations from a re-analysis of the deposited data

How the results depend on the processing

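Unknown depth limits what can be said of every member, and values of 0 add to this for all but *Lpl* and *Plin2*. The number of members past the threshold was 0 under all 14 alternatives, including each fit without a library (0 to 0). The number of all genes past it was 0 as well (0 to 0 without a library), with the exception of 1, *Gm13305*, at a pseudocount of 5. Replicate numbers are shared between lineages but no source says that they mark a shared litter, batch or day. Deviations of same-numbered libraries from their lineage means had correlations of -0.011, -0.004 and -0.011 across genes, which gave no sign of pairing. With 3 libraries per lineage, a shared litter, batch or day could be missed by this check. With the replicate block the counts were 0 and 0.

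Among single members, *Lpl* ran from -0.73 to 0.33 on the log2 scale across the fits without a library and was positive without SHF replicate 1 (0.33) or CNC replicate 1 (0.29). *Fabp5* ran from -2.25 to 0.63 and was positive without SHF replicate 2 (0.63) or CNC replicate 2 (0.52). Over all 14 alternatives, *Fabp4* kept its sign, from 0.45 to 3.25, as did *Plin2* (-1.24 to -0.44). *Cd36* kept its sign over 11 alternatives (1.97 to 4.86), since without SHF replicate 2, SHF replicate 3 or CNC replicate 2 it no longer passed the filter. The difference in the log2 ratio of *Fabp4* to *Fabp5* ran from 0.66 to 5.48 across the values without a library. That of *Plin2* to *Plin1* ran from -1.24 to 1.89, and turned negative without CNC replicate 2 (-1.24), the library with *Plin1*. Of the 8 list medians, 6 changed sign in some alternative, 17 of 112 values, 11 of them with a library left out. The median for triglyceride synthesis was -0.20 with the filter of 5 TPM and -0.23 without CNC replicate 3. Median-of-ratios rescaling moved the median of all genes to -0.04. The cause of these changes was not tested.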
